A study of Homo sapiens with 8 samples.

Results

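The genes described here encode the subunits of the proteasome, its regulatory particle and its activators in HEK293 cells, an immortal line made from human embryonic kidney cells, with and without a targeted KAT5 gene. KAT5 encodes TIP60, a lysine acetyltransferase of chromatin. Members were all protein-coding genes with the symbols PSMA1 to PSMA7, PSMB1 to PSMB10, PSMC1 to PSMC6, PSMD1 to PSMD14 and PSME1 to PSME4, and all 41 were among the 27936 genes of the count tables. No pseudogene of these families was listed there. The rule used symbols alone and no measured value, though earlier results of these data were known when it was set.

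The study held 8 RNA-seq libraries, 4 of cells labelled TIP60 KO (genotype HEKg1/C9) and 4 of cells labelled Control (genotype HEKg1). Guide RNAs, which lead a nuclease to its target, were numbered sgRNA1 and sgRNA2, with 2 libraries of each number in each arm. All 8 cultures were grown with 2 mM GlutaMAX and given doxycycline at 1 µg/ml for 3 days to induce the guides, so both arms carried doxycycline and a guide. The targets of the control guides, the meaning of C9 and whether a line was 1 clone or a pool are not stated in the sources used here. The labels also do not say that the 2 libraries of a group came from separate cultures, and the p-values then measure only the spread between these libraries, which may be technical. The stated question was which genes are expressed differently in KO and control cells.

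The proteasome is the protease that degrades proteins tagged with ubiquitin in the cytosol and the nucleus. Its barrel-shaped 20S core has outer rings of alpha subunits (PSMA genes), which gate the entrance, and inner rings of beta subunits (PSMB genes), of which PSMB5, PSMB6 and PSMB7 carry the peptidase sites. The 19S regulatory particle caps the core: its base holds a ring of ATPases (PSMC genes) that unfold substrates, with scaffolds and a ubiquitin receptor, and its lid removes the ubiquitin chain. Interferon-inducible subunits (PSMB8, PSMB9 and PSMB10) can replace the 3 catalytic ones, and the PSME genes encode alternative activators that open the core without ATP.

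Counts summed to 13325415 to 18841774 in the KO libraries and to 3723992 to 14601552 in the control libraries, the lowest in control sgRNA1 replicate 2. KAT5 itself had 18.6, 18.3, 20.2 and 18.0 CPM (counts per 1e6 counts, scaled by TMM factors) in the KO libraries, against 48.2, 45.5, 44.5 and 49.0 CPM in the control libraries (in each arm sgRNA1 replicates 1 and 2, then sgRNA2 replicates 1 and 2, an order kept below). All KO libraries were lower (log2 fold change -1.32 ± 0.064, SE, edgeR adjusted p = 6.71e-13), and transcript remained at 40.1% of the control level. Of the genes usually found in HEK293, NEFM, NEFL and VIM were abundant in all libraries, with NEFM (log2 fold change 0.57) and NEFL (0.38) higher and VIM (-0.30) lower in KO. INA, another of them, was low in both arms and higher in KO (2.21, adjusted p = 5.92e-10, edgeR), while PAX2 stayed at or below 1.31 CPM and LHX1 at or near 0. Marker genes of other cell types were low: the 6 leukocyte markers summed to 1.75 to 2.52 CPM in KO and 0.977 to 1.35 CPM in control libraries, the 3 endothelial ones to 0.594 to 1.40 and 0 to 0.326, the 3 hepatocyte ones to 0.234 to 0.594 and 0 to 0.069, the 4 fibroblast ones to 16.4 to 21.4 and 12.4 to 22.1, and the 3 epithelial ones to 13.2 to 16.2 and 16.8 to 20.9. Of these only CD14, COL1A1, COL1A2 and EPCAM had enough counts for a test, CD14 being higher (1.23, adjusted p = 0.00122) and EPCAM lower (-0.39, adjusted p = 0.000904) in KO. Their part in the results below was not tested.

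Proteasome transcripts shifted by small amounts in KO cells, and more of them fell than rose. Of the 13 tested constitutive 20S core genes 7 fell and none rose, and of the 17 genes of the 19S particle without its chaperones 5 fell and 1 rose. Of 41 members, 38 had enough counts to be tested, and 16 of them fell, 3 rose and 19 did not pass an adjusted p of 0.05 (edgeR quasi-likelihood F test, Benjamini-Hochberg over 14455 genes). Among the tested members 42.1% were lower and 7.89% higher, 19 of 38 in all; the background over the whole table was 31.2% lower and 31.8% higher, 63.0% in all. No member reached an absolute log2 fold change of 1, and 27 of 38 were under 0.25. The median log2 fold change was -0.08 over the tested members and 0.01 over all tested genes. In these bulk libraries, fewer cells of a type and less RNA per cell cannot be told apart.

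The share of genes lower in KO increased with abundance over the whole table, and members are abundant genes. Among genes with a mean control level of 100 to 300 CPM, 9 of 21 members fell and 2 rose, while 49.1% of all 2093 such genes were lower and 22.1% higher. Between 30 and 100 CPM, 4 of 11 members fell and none rose, while 40.5% of 4532 genes were lower and 28.7% higher. Of 2 members over 300 CPM 1 fell, where 56.7% of genes were lower and 15.2% higher; the 1 member between 10 and 30 CPM fell, where 30.5% were lower and 32.8% higher; and of 3 members under 10 CPM 1 fell and 1 rose, where 11.5% were lower and 40.6% higher. With the classes weighted as the members fill them, genes of like abundance were lower in 43.6% and higher in 25.4% of cases with a median of -0.05, beside 42.1%, 7.89% and -0.08 for the members. The count of members that fell was thus near that of genes of like abundance, and the count that rose was lower than theirs; no test of that difference was made. In 14 members all KO libraries were below all control libraries, and in 3 all were above (PSMC5, PSMD3 and PSME4), where 25.6% and 27.3% of all tested genes did so.

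**Figure D1:**
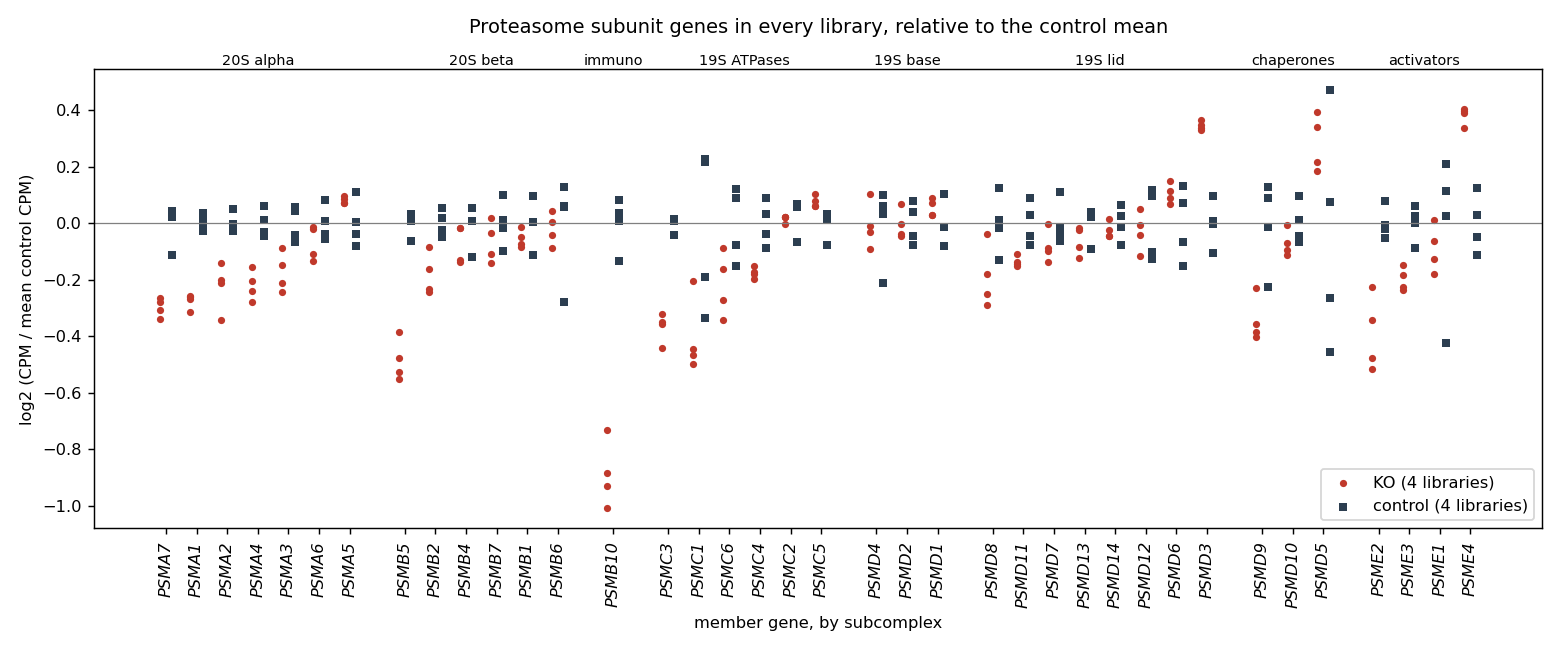
Log2 of the CPM of each of the 38 tested members in each library over the mean control CPM of that gene, KO libraries as circles and control libraries as squares, members grouped by subcomplex. PSMB10 and PSMB5 lie lowest in KO, PSMD3 and PSME4 lie above every control library, and the 19S base scaffolds straddle 0.

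**Figure D2:**
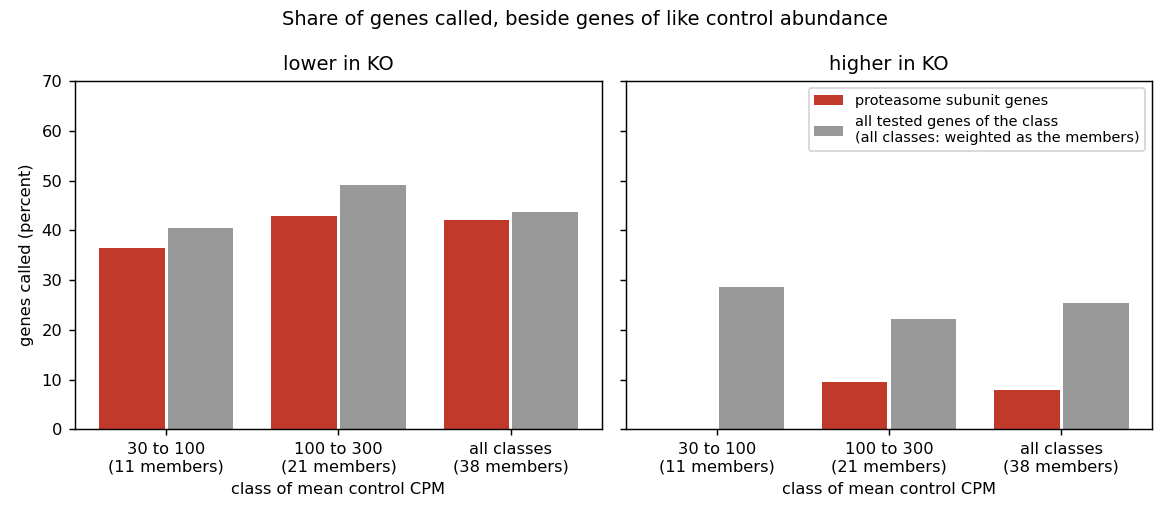
Percent of genes called lower (left) and higher (right) in KO in 2 classes of mean control CPM and over all classes, tested members beside all tested genes of the class. The members' bars for lower are close to those of genes of like abundance (42.1% and 43.6% over all classes), and the bars for higher are shorter (7.89% and 25.4%).

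Promoter sequences are shown for the 2 genes with the largest falls, PSMB10 and PSMB5, and for the 2 rises called under every alternative setting, PSMD3 and PSME4. Each runs 5′ to 3′ on the gene's own strand from 250 bases before to 50 bases after the first listed start (RefSeq, GRCh38.p14): PSMB10 chr16:67936801-67937100 (minus strand), PSMB5 chr14:23035171-23035470 (minus), PSMD3 chr17:39980557-39980856 (plus) and PSME4 chr2:53970944-53971243 (minus). Capitals mark a repeat of GAAA after a gap of 2 bases in PSMB10, CCAAT in PSMB5, CCAAT and TGACNNNGC in PSMD3, and CCGGAAG and TGACNNNGC in PSME4, each read on both strands, and none overlaps another.
PSMB10: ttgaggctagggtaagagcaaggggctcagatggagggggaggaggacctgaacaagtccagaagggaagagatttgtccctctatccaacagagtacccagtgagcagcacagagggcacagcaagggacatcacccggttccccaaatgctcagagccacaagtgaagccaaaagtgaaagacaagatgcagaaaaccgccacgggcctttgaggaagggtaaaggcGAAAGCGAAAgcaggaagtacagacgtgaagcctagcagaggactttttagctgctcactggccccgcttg
PSMB5: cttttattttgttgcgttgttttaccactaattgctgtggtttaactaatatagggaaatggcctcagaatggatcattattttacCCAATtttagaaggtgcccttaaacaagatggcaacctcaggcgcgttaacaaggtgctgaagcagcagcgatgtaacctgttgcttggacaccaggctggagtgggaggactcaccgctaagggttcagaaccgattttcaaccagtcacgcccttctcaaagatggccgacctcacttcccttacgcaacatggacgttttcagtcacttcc
PSMD3: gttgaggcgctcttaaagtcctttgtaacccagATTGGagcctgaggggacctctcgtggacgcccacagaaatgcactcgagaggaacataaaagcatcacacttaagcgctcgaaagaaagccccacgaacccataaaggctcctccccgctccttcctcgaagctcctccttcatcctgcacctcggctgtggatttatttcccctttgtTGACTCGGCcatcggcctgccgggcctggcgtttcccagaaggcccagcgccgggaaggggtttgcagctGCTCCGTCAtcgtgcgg
PSME4: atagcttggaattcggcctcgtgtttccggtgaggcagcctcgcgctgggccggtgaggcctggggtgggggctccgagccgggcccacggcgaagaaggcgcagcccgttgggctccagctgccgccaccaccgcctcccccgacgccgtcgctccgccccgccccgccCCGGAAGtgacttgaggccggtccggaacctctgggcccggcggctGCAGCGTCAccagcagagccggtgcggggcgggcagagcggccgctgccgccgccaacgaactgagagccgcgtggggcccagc

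TGACNNNGC, the core of the antioxidant response element that NRF1 and NRF2 recognise, stood in both of the genes shown that rose. It stood from base -37 and from base 33 in PSMD3 and from base -34 in PSME4, counted from the start. Neither PSMB10 nor PSMB5 holds these letters in the window. The GAAA repeat, the core of an interferon response element, began at base -21 in PSMB10. CCAAT began at base -164 in PSMB5, and CCGGAAG, an ETS factor core, at base -80 in PSME4.

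Across the gene family, 36 of the 41 members had a promoter in the table used; PSMA7, PSMB1, PSMB6, PSMB7 and PSMD4 did not. TGACNNNGC stood in 11 of 36 (30.6%), namely PSMB3, PSMB9, PSMC4, PSMD1, PSMD3, PSMD5, PSMD9, PSMD12, PSME1, PSME2 and PSME4, against 14.9% of the promoters of 11414 tested genes and 13.6% of all 27305 promoters. The 11 include all 3 members that rose and also PSMC4, PSMD9 and PSME2, which fell. CCGGAAG stood in 30.6% of the members against 18.5% of tested genes, CCAAT in 47.2% against 37.0%, TATAAA in 11.1% against 5.92%, GCGC repeated after a gap of 2 bases (the core for nuclear respiratory factor 1) in 13.9% against 15.8%, and GGGCGG (the SP1 box) in 66.7% against 69.9%. The GAAA repeat, which was added to the search after the PSMB10 promoter had been read, stood in PSMA4, PSMB4, PSMB10, PSME1 and PSME2, or 13.9%, against 2.57%. Since PSMB10 prompted this search and is counted in it, the members' share is raised by that choice. Such matches describe letters in a window and not binding.

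The alpha ring of the 20S core fell in 5 of its 7 genes, by a similar small amount in each, where 40.5% of all genes of 30 to 100 CPM and 49.1% of those of 100 to 300 CPM were lower. Its summed level was 1010 to 1060 CPM in KO libraries against 1150 to 1230 CPM in control libraries, which do not overlap, and its genes took 20.6 to 21.0% of all member counts in KO against 22.3 to 22.9% in control. The median log2 fold change was -0.22 over the ring and 0.01 over all tested genes. Over all genes of 30 to 100, 100 to 300 and over 300 CPM it was -0.05, -0.10 and -0.15. PSMA4 lies in the class over 300 CPM, where 56.7% of genes were lower.

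PSMA1 (gene ID 5682, chromosome 11, 14504876 to 14643662, GRCh38), an alpha subunit, had 241, 249, 250 and 251 CPM in KO against 307, 294, 302 and 296 CPM in control libraries. PSMA7 (5688, chromosome 20, 62136733 to 62143394) had 95.8, 101, 100 and 98.0 CPM in KO against 125, 112, 123 and 125 CPM in control libraries. PSMA4 (5685, chromosome 15, 78540405 to 78552417) had 276, 291, 284 and 301 CPM in KO against 350, 325, 328 and 338 CPM in control libraries. In all 3 genes every KO library was below every control library. Log2 fold changes were -0.28 ± 0.040 for PSMA1 (SE, adjusted p = 4.95e-06), -0.31 ± 0.046 for PSMA7 (adjusted p = 6.94e-06) and -0.22 ± 0.044 for PSMA4 (adjusted p = 0.000172). PSMA2 (-0.23 ± 0.046, adjusted p = 0.000242) and PSMA3 (-0.18 ± 0.050, adjusted p = 0.00345) also fell without overlap of the groups. PSMA6 (-0.07 ± 0.049, adjusted p = 0.205) and PSMA5 (0.07 ± 0.046, adjusted p = 0.203) did not pass, and their groups overlapped. In GENCODE v29, 24.7% of PSMA1 exonic bases and 14.6% of PSMA2 ones are shared with another gene on the same strand. The annotation used for counting is not stated, so how reads there were assigned is not known. PSMA3 lost its call when all libraries were thinned to the depth of the shallowest (-0.23, adjusted p = 0.108).

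In the constitutive beta ring, PSMB5 and PSMB2 fell and the other measured genes did not pass the test. Of all genes of 30 to 100 CPM 40.5% were lower, and of those of 100 to 300 CPM 49.1%. The 6 genes tested of 7 summed to 796 to 861 CPM in KO libraries and 846 to 951 CPM in control libraries, and these ranges overlap. PSMB5 (5693, chromosome 14, 23025851 to 23035220), the chymotrypsin-like subunit that clinical proteasome inhibitors bind, had 84.8, 87.9, 83.4 and 93.6 CPM in KO against 123, 117, 124 and 125 CPM in control libraries. The highest KO library lay well below the lowest control library. The log2 fold change was -0.49 ± 0.047 (adjusted p = 1.51e-08), to 71.5% of the control level, the largest fall among the constitutive core genes.

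The other constitutive peptidase subunits did not pass the test. PSMB6, the caspase-like subunit (5694, chromosome 17, 4796164 to 4798495), had 90.4, 98.9, 93.3 and 96.3 CPM in KO against 100, 79.2, 99.8 and 105 CPM in control libraries. PSMB7, the trypsin-like subunit (5695, chromosome 9, 124353465 to 124415442), had 88.3, 96.3, 86.3 and 93.0 CPM in KO against 95.9, 88.9, 94.0 and 102 CPM in control libraries. The groups overlapped in both genes, and the lowest PSMB6 value of all was that of the shallowest library. Log2 fold changes were -0.05 ± 0.058 (adjusted p = 0.501) for PSMB6 and -0.08 ± 0.051 (adjusted p = 0.200) for PSMB7. PSMB2 (5690, chromosome 1, 35599541 to 35641526), a subunit without a peptidase site, had 205, 207, 217 and 229 CPM in KO against 252, 235, 239 and 246 CPM in control libraries. All its KO libraries were lower, by -0.18 ± 0.044 on the log2 scale (adjusted p = 0.00124). PSMB1 (-0.06 ± 0.043, adjusted p = 0.209) and PSMB4 (-0.08 ± 0.047, adjusted p = 0.134) did not pass. Without the shallowest library, control sgRNA1 replicate 2, PSMB6 (-0.11, adjusted p = 0.0406), PSMB1 (-0.094, adjusted p = 0.0438) and PSMB4 (-0.13, adjusted p = 0.0170) passed as lower.

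Of the interferon-inducible subunits, PSMB10 was measured and had the largest change of all tested members. PSMB10 (5699, chromosome 16, 67934506 to 67936850), which can take the place of PSMB7, had 4.97, 5.13, 4.71 and 5.69 CPM in KO against 9.70, 8.62, 9.52 and 10.0 CPM in control libraries. These rest on 85, 69, 90 and 86 counts in KO and 120, 32, 138 and 123 counts in control libraries. Every KO library was below every control library, and the mean was 5.12 ± 0.418 CPM in KO and 9.46 ± 0.597 CPM in control libraries (SD, n = 4 each). The log2 fold change was -0.91 ± 0.12 (adjusted p = 1.02e-06), to 54.1% of the control level. At the depth of the shallowest library the value was -1.01 and the adjusted p 0.0542, which misses the threshold. In GENCODE v29, 34.8% of the exonic bases of PSMB10 are shared with AC040162.1 on the same strand. Whether the counting included that gene is not stated.

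The ratio of PSMB10 to PSMB7 within a library, which needs no scaling between libraries, differed in the same way. Its log2 value (0.5 added to each count) was -4.14, -4.22, -4.19 and -4.02 in KO against -3.30, -3.35, -3.30 and -3.34 in control libraries. The groups did not overlap, the control libraries lay within a narrow span, and the mean was -4.14 ± 0.09 in KO and -3.32 ± 0.02 in control libraries (SD, n = 4 each). The difference was -0.82 (two-sided exact permutation p = 0.0286, the smallest that 4 against 4 allows), -0.86 with sgRNA1 and -0.79 with sgRNA2. The corresponding ratios of PSMB8 to PSMB5 and PSMB9 to PSMB6 were not computed, since PSMB8 and PSMB9 had no count.

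PSMB3, PSMB8 and PSMB9 could not be measured. PSMB3 (5691, chromosome 17, 38752741 to 38764225), a constitutive beta subunit, had 1 count in all 8 libraries, in KO sgRNA2 replicate 1. PSMB8 (5696, chromosome 6, 32840717 to 32844679) and PSMB9 (5698, chromosome 6, 32854192 to 32859851) had 0 counts in every library. A count of 0 allows, at 3 counts over an arm, up to 0.0468 CPM in KO and 0.0691 CPM in control cells, for counting error only. PSMB3 is part of every proteasome, so its near absence from the tables cannot be read as lack of transcript. Of the 12 protein-coding genes within 200 kb of PSMB3, 9 likewise had at most 3 counts over all libraries, MLLT6, PCGF2, PIP4K2B and CWC25 among them with 0, whereas RPL23 had 80473 and LASP1 7292. Around PSMB8 and PSMB9, 8 of 12 neighbours had at most 3 counts, TAP1 with 0 and several HLA-D genes among them, whereas BRD2 had 2203 and HLA-DQB1 1356. PSMB8 and PSMB9 are each counted there as a neighbour of the other. No 80-base stretch of the PSMB3, PSMB8 or PSMB9 transcripts was found in another gene of GENCODE v29. That search covered the primary assembly, so copies on alternate or patch sequences could not be seen. The cause was not tested, and nothing about immunoproteasome genes at this locus is read from the zeros.

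Of the 6 genes of the 19S ATPase ring 3 fell, a share close to the 49.1% lower among all genes of 100 to 300 CPM. The ring summed to 563 to 581 CPM in KO against 613 to 649 CPM in control libraries, without overlap, with a median log2 fold change of -0.21. PSMC3 (5702, chromosome 11, 47418775 to 47426439) had 150, 160, 159 and 163 CPM in KO against 205, 206, 198 and 206 CPM in control libraries. All KO libraries were far below the closely spaced control libraries, with a log2 fold change of -0.36 ± 0.042 (adjusted p = 2.42e-07). PSMC4 (5704, chromosome 19, 39971165 to 39981764) had 90.1, 89.7, 91.5 and 88.7 CPM in KO against 108, 95.6, 99.0 and 104 CPM in control libraries. PSMC6 (5706, chromosome 14, 52707200 to 52728590) had 35.6, 42.5, 37.4 and 40.3 CPM in KO against 49.1, 42.8, 48.0 and 40.6 CPM in control libraries. The groups of PSMC4 did not overlap, whereas the lowest PSMC6 control library lay within the KO range. Log2 fold changes were -0.18 ± 0.047 for PSMC4 (adjusted p = 0.00173) and -0.23 ± 0.069 for PSMC6 (adjusted p = 0.00610), and at the depth of the shallowest library both missed the threshold (-0.23, adjusted p = 0.0946, and -0.082, adjusted p = 0.719).

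PSMC2 (0.01 ± 0.045, adjusted p = 0.858) and PSMC5 (0.07 ± 0.041, adjusted p = 0.133) did not pass. PSMC5 had 164, 164, 169 and 166 CPM in KO against 159, 149, 161 and 160 CPM in control libraries, so that every KO library was higher by a little. PSMC1 had only 4.44, 4.53, 4.60 and 5.43 CPM in KO against 5.49, 7.27, 4.97 and 7.33 CPM in control libraries, which overlap (-0.34 ± 0.15, adjusted p = 0.0550). Its value is uncertain: NRDE2 overlaps 75.8% of its exonic bases on the other strand, and 18.3% of its 80-base stretches also occur in 7 other genes, all PSMC1 pseudogenes. The strand setting of the counting is not stated in the sources used here.

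The base scaffolds and the ubiquitin receptor showed no change that passed the test. PSMD1 (5707, chromosome 2, 231056867 to 231172827), a scaffold, had 234, 234, 244 and 241 CPM in KO against 246, 227, 217 and 227 CPM in control libraries. PSMD2 (5708, chromosome 3, 184299241 to 184309050), the other scaffold, had 346, 356, 348 and 374 CPM in KO against 377, 338, 346 and 367 CPM in control libraries. PSMD4 (5710, chromosome 1, 151254734 to 151267479), a ubiquitin receptor, had 87.4, 91.0, 92.4 and 100 CPM in KO against 97.2, 80.3, 95.2 and 99.7 CPM in control libraries. The groups overlapped in all 3, with log2 fold changes of 0.05 ± 0.045 (adjusted p = 0.300), -0.01 ± 0.046 (adjusted p = 0.892) and -0.02 ± 0.052 (adjusted p = 0.696). These 3 genes took 13.6 to 14.1% of member counts in KO against 12.8 to 13.2% in control libraries.

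In the lid PSMD3 rose, PSMD8 and PSMD11 fell and 5 of 8 genes did not pass. Of all genes of 100 to 300 CPM 22.1% were higher and 49.1% lower. Between 30 and 100 CPM the shares were 28.7% and 40.5%. PSMD3 (5709, chromosome 17, 39980807 to 39997959), a structural lid subunit, had 305, 303, 309 and 301 CPM in KO against 256, 223, 239 and 241 CPM in control libraries. The KO libraries lay close together above every control library, with a log2 fold change of 0.34 ± 0.044 (adjusted p = 1.35e-06). PSMD8 (5714, chromosome 19, 38374571 to 38383824) had 80.1, 84.2, 77.9 and 92.9 CPM in KO against 94.2, 87.0, 96.1 and 104 CPM in control libraries. PSMD11 (5717, chromosome 17, 32444510 to 32483319) had 170, 165, 166 and 167 CPM in KO against 195, 174, 178 and 187 CPM in control libraries. The PSMD8 groups overlapped in 1 library of each arm and the PSMD11 groups did not, with log2 fold changes of -0.20 ± 0.056 (adjusted p = 0.00412) and -0.14 ± 0.044 (adjusted p = 0.00758). PSMD14, the deubiquitinase of the lid, was at -0.03 ± 0.043 (adjusted p = 0.599). PSMD6 (0.09), PSMD7 (-0.08), PSMD12 (-0.01) and PSMD13 (-0.07) had adjusted p from 0.154 to 0.801. The lid took 23.3 to 24.2% of member counts in KO against 21.9 to 22.2% in control libraries, while its summed CPM overlapped between the arms (1170 to 1180 and 1110 to 1210).

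The base assembly chaperones, which hold ATPases during assembly and leave the finished particle, gave 1 fall and 1 rise among 3 genes. In the class of PSMD9, 30 to 100 CPM, 40.5% of all genes were lower and 28.7% higher. In the class of PSMD5, under 10 CPM, 11.5% were lower and 40.6% higher. PSMD9 (5715, chromosome 12, 121888790 to 121918297) had 45.0, 46.5, 45.6 and 50.8 CPM in KO against 65.0, 50.9, 58.9 and 63.3 CPM in control libraries. PSMD5 (5711, chromosome 9, 120816053 to 120842922) had 10.6, 9.51, 11.0 and 9.73 CPM in KO against 8.81, 11.6, 6.97 and 6.11 CPM in control libraries. PSMD10 (5716, chromosome X, 108084207 to 108091542) had 81.7, 80.4, 79.3 and 85.4 CPM in KO against 91.6, 81.9, 86.5 and 83.2 CPM in control libraries. The PSMD9 groups were just apart, and the highest PSMD5 value was that of the shallowest control library. PSMD9 fell (-0.37 ± 0.062, adjusted p = 2.68e-05), PSMD5 rose (0.40 ± 0.13, adjusted p = 0.0110) and PSMD10 did not pass (-0.08 ± 0.049, adjusted p = 0.157). PSMD5 missed the threshold without KO sgRNA2 replicate 1 (0.29, adjusted p = 0.0745), without control sgRNA2 replicate 2 (0.29, adjusted p = 0.0792) and at the depth of the shallowest library (0.20, adjusted p = 0.706). In GENCODE v29, 19.9% of the exonic bases of PSMD9 are shared with other genes on the same strand.

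Among the activators PSME4 rose and PSME2 and PSME3 fell. In the class of PSME3 and PSME4, 100 to 300 CPM, 49.1% of all genes were lower and 22.1% higher. In the class of PSME2, 10 to 30 CPM, 30.5% were lower and 32.8% higher. PSME4 (23198, chromosome 2, 53864069 to 53970993) encodes PA200, a nuclear activator linked to acetylated histones, and had 221, 222, 223 and 213 CPM in KO against 184, 172, 156 and 163 CPM in control libraries. Every KO library was above every control library, with a log2 fold change of 0.38 ± 0.045 (adjusted p = 2.55e-07). PSME3 (10197, chromosome 17, 42833397 to 42843760), the nuclear PA28 gamma, had 238, 251, 245 and 236 CPM in KO against 290, 278, 262 and 283 CPM in control libraries. All its KO libraries were lower, by -0.20 ± 0.043 on the log2 scale (adjusted p = 0.000432).

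PSME1 and PSME2 encode the alpha and beta chains of the interferon-inducible PA28 activator and lie close together on chromosome 14. PSME2 (5721, 24143365 to 24146610) had 18.5, 18.0, 20.3 and 22.0 CPM in KO against 25.4, 24.8, 25.6 and 27.2 CPM in control libraries. PSME1 (5720, 24136194 to 24138962) had 43.9, 42.0, 40.5 and 46.2 CPM in KO against 49.6, 34.2, 46.7 and 53.0 CPM in control libraries. The PSME2 groups did not overlap, whereas the PSME1 groups did because of the shallowest control library, the lowest of all 8. PSME2 fell (-0.38 ± 0.070, adjusted p = 7.75e-05) and PSME1 did not pass (-0.14 ± 0.076, adjusted p = 0.118). Without the shallowest library PSME1 passed as lower (-0.22, adjusted p = 0.00429). At the depth of that library neither PSME2 (-0.18, adjusted p = 0.557) nor PSME3 (-0.099, adjusted p = 0.291) passed.

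**Figure D3:**
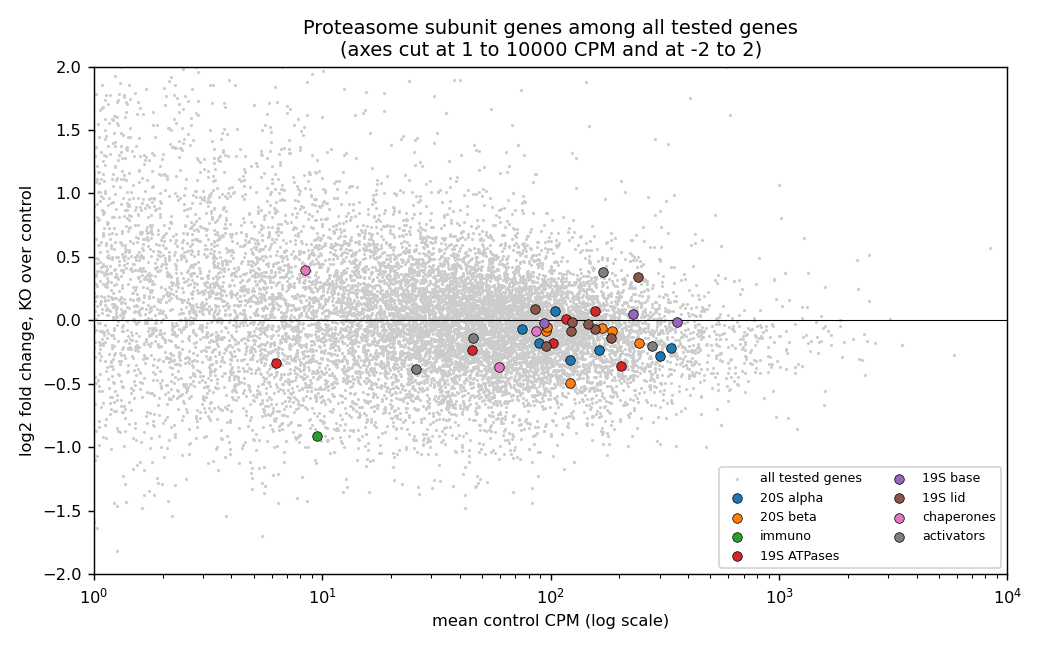
Log2 fold change of KO over control against the mean control CPM (log scale) for all tested genes in grey and the tested members in colour by subcomplex. Most members lie between 30 and 300 CPM within 0.5 of 0, inside the cloud of all genes, and PSMB10, PSMC1 and PSMD5 lie under 10 CPM.

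Per gene length, the transcripts of subunits that stand in equal number in the particle were not at equal levels in either arm. Over the 13 tested constitutive core genes the level per kilobase (geometric mean over libraries) ran from 28.3 CPM for PSMA5 to 236 CPM for PSMA4 in KO, with a median of 94.6, and from 26.8 CPM for PSMA5 to 275 CPM for PSMA4 in control libraries, with a median of 110 CPM. The SD of log2 level over these genes was 0.86 to 0.88 in KO and 0.88 to 0.92 in control libraries. Over the 17 genes of the regulatory particle without its chaperones the lowest was PSMC1, at 2.99 CPM per kilobase in KO and 3.89 in control. That level is uncertain, since PSMC1 overlaps NRDE2 and shares stretches with its pseudogenes, as given above. The highest was PSMD3 at 139 CPM per kilobase in KO and PSMC3 at 122 in control, with medians of 68.0 and 68.1. Gene length is that of the tables and counting of shared reads differs between genes, so the order of levels is approximate.

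**Figure D4:**
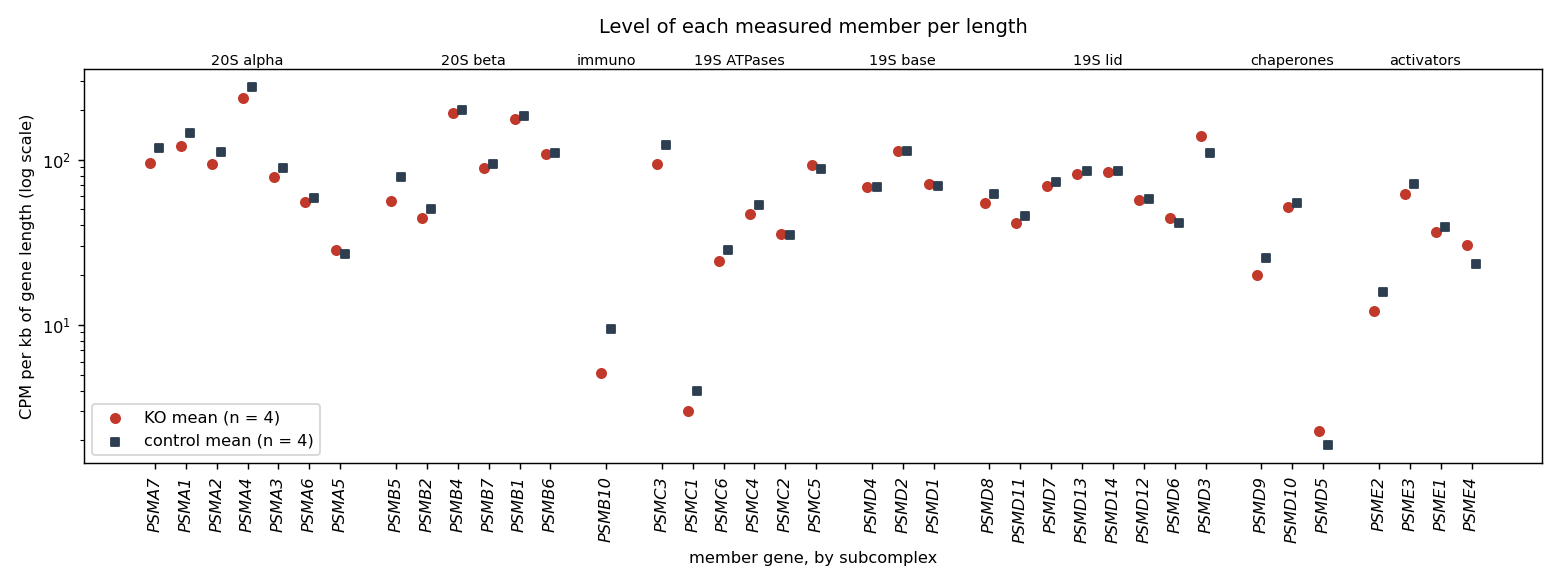
Mean level per kilobase of gene length (CPM per kb, log scale, no error bars) of each tested member in KO (circles) and control (squares), members grouped by subcomplex. The core genes span 28.3 to 236 in KO and 26.8 to 275 in control, and most members have nearly the same level in both arms.

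The members called were alike in number with both guide numbers. With sgRNA1, 13 members fell and 2 rose, where the whole table held 23.3% lower and 24.3% higher genes. With sgRNA2, 13 fell and 3 rose, where 25.4% were lower and 25.7% higher. KO and control libraries were matched by guide number alone, and the sources used here do not state that same-numbered guides correspond. Matched in this way, the sign was the same with both guide numbers in 34 of the 38 tested members, all 19 called ones among them. PSMB5 changed by -0.48 and -0.49, PSMB10 by -0.90 and -0.92, PSMD3 by 0.33 and 0.34, and PSME4 by 0.31 and 0.46 on the log2 scale with sgRNA1 and sgRNA2 in that order. The difference between guides was called in no member (0.0% of all tested genes, edgeR), and at an unadjusted p under 0.05 in 1 member and in 4.41% of all tested genes; limma-voom likewise called no member. That member was PSMD5, with 0.08 ± 0.17 for sgRNA1 and 0.67 ± 0.15 for sgRNA2 (adjusted p = 0.00151), a difference of 0.59 ± 0.23 (adjusted p = 1). Its KO libraries were alike with sgRNA1 (10.6 and 9.51 CPM) and sgRNA2 (11.0 and 9.73 CPM). Its control libraries were higher with sgRNA1 (8.81 and 11.6 CPM) than with sgRNA2 (6.97 and 6.11 CPM).

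**Figure D5:**
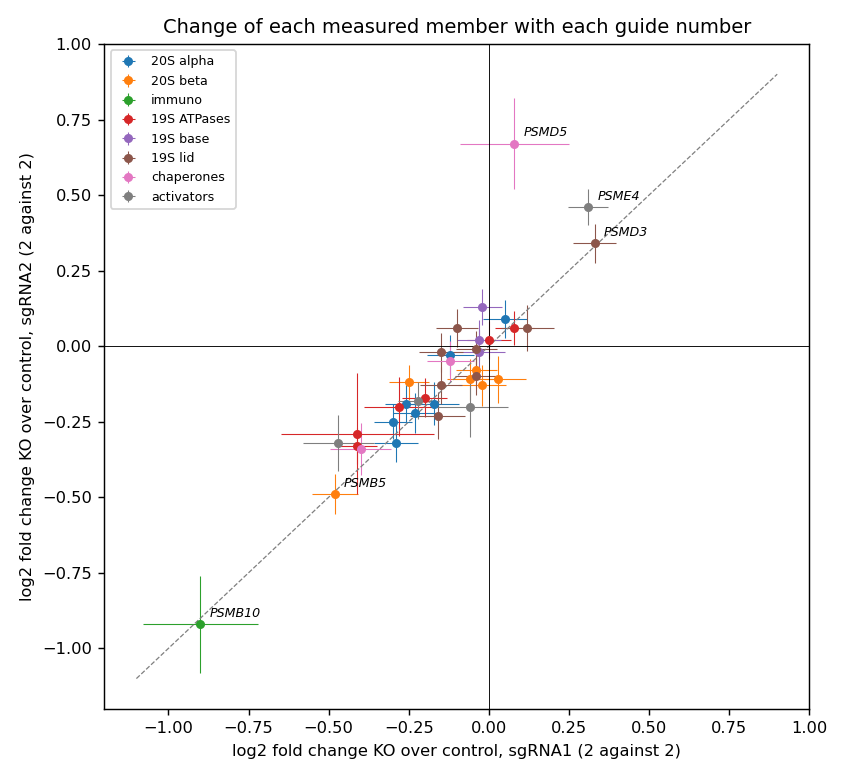
Log2 fold change of KO over control of each tested member with sgRNA1 (x axis) and sgRNA2 (y axis), 2 libraries against 2 in each, bars showing the SE and the dashed line equality. PSMB10 and PSMB5 lie on the line at about -0.9 and -0.5, and PSMD5 lies farthest from it.

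Some members share a start region with another gene, and these partners did not follow one direction. PSME4 starts 120 bases from ACYP2 on the other strand, an acylphosphatase gene that rose by 1.31 (adjusted p = 2.24e-09) where PSME4 rose by 0.38. PSMA2 starts 202 bases from MRPL32, which encodes a mitochondrial ribosomal protein and changed by -0.48 (adjusted p = 1.29e-07) beside -0.23 for PSMA2. SIRT3 starts 45 bases from PSMD13 and changed by -0.38 (adjusted p = 0.00217) where PSMD13 did not pass. ATG4A, an autophagy protease gene 236 bases from PSMD10, rose by 0.52 (adjusted p = 1.69e-06), and RNF31, 265 bases from PSME2, was at 0.10 (adjusted p = 0.264). Of 8 members with such a partner within 1000 bases, the partners of PSMB9, PSMC4 and PSMD9 were not tested.

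Genes that build, serve or regulate the proteasome were counted by the same fit, in lists of 58 genes of which 52 were tested; 18 rose and 16 fell, with a median of 0.01. Those shares are near the background over the whole table (31.8% higher and 31.2% lower), beside which the counts of each list below stand as a description of few genes. Of 6 assembly chaperones of the core and the regulatory particle 3 fell and none rose, with a median of -0.17. PSMG3 had 54.2 ± 1.48 CPM in KO and 73.1 ± 2.26 CPM in control libraries (SD, n = 4 each; log2 fold change -0.44 ± 0.048, adjusted p = 9.8e-08 by edgeR), and its partner PSMG4 12.8 ± 1.85 CPM in KO and 18.1 ± 0.985 CPM in control libraries (-0.51 ± 0.089, adjusted p = 4.35e-05 by edgeR). PSMG2 fell by less (-0.26 ± 0.072, adjusted p = 0.00314), while its partner PSMG1 (-0.05, adjusted p = 0.296) and POMP (-0.03, adjusted p = 0.609), which guides beta-ring assembly, did not pass. At the depth of the shallowest library PSMG2 (-0.25, adjusted p = 0.293), PSMG3 (-0.24, adjusted p = 0.128) and PSMG4 (-0.45, adjusted p = 0.150) no longer passed, and PSMG1 did (-0.32, adjusted p = 0.0223).

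Of 18 tested associated subunits, ubiquitin shuttles and deubiquitinases, 4 rose and 7 fell, with a median of -0.06, where the whole table held 31.8% higher and 31.2% lower genes and the class of 30 to 100 CPM 28.7% and 40.5%. UBQLN4, a shuttle factor, had the largest fall, with 49.2 ± 5.04 CPM in KO and 87.7 ± 5.89 CPM in control libraries (-0.84 ± 0.055, adjusted p = 5.29e-11 by edgeR). DDI2, the protease that activates NRF1, was higher at 38.1 ± 1.57 CPM in KO and 24.2 ± 1.35 CPM in control libraries (0.68 ± 0.063, adjusted p = 1.07e-08 by edgeR). AKIRIN2, which brings proteasomes into the nucleus, rose (0.43 ± 0.053, adjusted p = 6.34e-07), as did ZFAND5, a proteasome-binding activator (0.40 ± 0.048, adjusted p = 4.54e-07).

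Of 11 genes that act in proteasome gene transcription, 6 rose and 2 fell, with a median of 0.10, where the background was 31.8% higher and 31.2% lower. NFE2L1, which encodes NRF1, the factor that drives subunit genes when proteasome activity is short, was at 217, 217, 227 and 220 CPM in KO against 216, 206, 213 and 217 CPM in control libraries, which overlap (0.05 ± 0.040, adjusted p = 0.323). NFE2L2, encoding NRF2, did not pass either (adjusted p = 0.143). NGLY1, the glycanase that also processes NRF1, rose (0.47 ± 0.055, adjusted p = 2.49e-07), and so did STAT3 (0.58 ± 0.048, adjusted p = 1.97e-09). Of the small MAF partners of NRF1, MAFK fell (-0.57 ± 0.059, adjusted p = 4.85e-08) and MAFG passed barely as higher, with overlapping groups (0.16 ± 0.069, adjusted p = 0.0461). MAFF had 39, 25, 47 and 28 counts in KO against 0, 1, 6 and 3 counts in control libraries, all KO libraries being higher (fitted log2 fold change 3.17 ± 0.40, adjusted p = 8.76e-07); with so few control counts the size of the change is imprecise.

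Of 6 genes of ubiquitin and its activation, 2 rose and 2 fell. UBB, a polyubiquitin gene, had 828 ± 18.8 CPM in KO and 667 ± 51.8 CPM in control libraries (0.32 ± 0.049, adjusted p = 1.21e-05 by edgeR). RPS27A, which encodes ubiquitin fused to a ribosomal protein, fell (-0.38 ± 0.073, adjusted p = 0.000149). The activating enzyme UBA1 fell by a small amount (-0.12 ± 0.049, adjusted p = 0.0387), a call lost without KO sgRNA1 replicate 2, KO sgRNA2 replicate 1, control sgRNA1 replicate 1, control sgRNA2 replicate 1 or control sgRNA2 replicate 2 (adjusted p = 0.0565 to 0.125).

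Of 11 tested antigen-processing and interferon genes of 14 in the list, 6 rose and 2 fell, with a median of 0.20, beside PSMB10 and PSME2, which fell. STAT2, a transcription factor of the interferon response, had 46.1 ± 3.45 CPM in KO and 32.4 ± 3.56 CPM in control libraries (SD, n = 4 each; 0.55 ± 0.069, adjusted p = 8.02e-07 by edgeR). HLA-B was at 12.3 ± 0.160 CPM in KO and 6.25 ± 0.655 CPM in control libraries (0.93 ± 0.10, adjusted p = 1.35e-07 by edgeR). ERAP2, an aminopeptidase that trims antigenic peptides, fell (-0.45 ± 0.051, adjusted p = 1.9e-07), and NLRC5, a transactivator of these genes, did not pass (adjusted p = 0.356). TAP1 had 0 and TAPBP 12 counts over all libraries and neither was tested, HLA genes share reads with one another, and the testis and thymus subunit genes PSMA8 and PSMB11 had 2 counts each over the 8 libraries.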

How the data were processed

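The authors deposited, for each of 8 libraries, raw counts per Entrez gene with a gene length, per the file headers. Reads came from stranded poly(A) libraries (80 bp paired-end), per the labels' protocols, and were counted with featureCounts on hg38, per the submitters' processing notes. The aligner, annotation and strand setting are not stated in the sources used here. Of 28395 entries, 459 without an ID (0.02836 to 0.04249% of counts) were left out.

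edgeR 4.0.16 was fitted to the whole table: TMM scaling, filterByExpr (minimum count 10, minimum total 15; 14455 genes kept), terms for KO and guide number, quasi-likelihood F test with 5 residual degrees of freedom, Benjamini-Hochberg over all tested genes, called at an adjusted p under 0.05. The biological coefficient of variation was 0.0473. Guides were compared in a model of the 4 group means (4 residual degrees of freedom). Adjusted p-values in the text are from these fits. CPM are TMM scaled; depths of 3723992 to 18841774 counts set the precision, and low members rest on few counts. The fit was tested on simulated data. Overlaps and 80-base stretches were read from GENCODE v29, promoters from RefSeq. Alternatives were other scalings, DESeq2 1.42.0, limma-voom (limma 3.58.1), other filters, no guide term, a replicate block, thinning to 3723992 counts and leaving out each library.

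Members, gene lists and alternatives were chosen with earlier results of these data known. Values per library are given for the catalytic subunits, the activators and the 3 genes of smallest p in each other subcomplex, and up to 4 genes of smallest p, or with a log2 fold change of at least 1, for other lists. PSMC1, PSMC5, PSMG and POMP details, NFE2L1, NFE2L2, MAFG, NLRC5 and the untested genes were picked out with their values in view. Values of some genes in the other lists are not reported here; the counts include them. Replicate libraries differed by more than counting noise, so none was counted as a duplicate.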

Additional observations from a re-analysis of the deposited data

Results flagged for a closer look

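PSMD13 (a lid subunit) in control sgRNA1 replicate 2 stood apart from the other control libraries, at 147 CPM against 159 to 161 CPM. Its gap to the nearest library was 0.895 of the range of the 4, above Dixon's critical value of 0.829. Over the 38 tested members in both arms 76 groups were examined, of which 1 was picked out, where chance picks out about 5%. Without that library, the shallowest, PSMD13 passed as lower in KO (-0.10, adjusted p = 0.0381, edgeR).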

How the results depend on the processing

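Of the 16 members called lower, 10 were called under all 17 alternatives and 16 under all but thinning; of the 3 called higher, 2 were called under all, PSMD3 and PSME4. Thinned to the shallowest library, 10 members were lower, 9 other pathway genes were lower, 15.3% of tested genes were higher and 16.4% lower, and the median over members was -0.12. With library totals alone, 6 members were higher (PSMA5, PSMC5 and PSMD6 added) and 16 lower, with medians of -0.048 over members and -0.014 over the lid. Leaving out 1 library at a time, 16 to 21 members were lower (21 without control sgRNA1 replicate 2) and 2 to 3 higher, and the median over members ran from -0.12 to -0.069.

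Members that had not passed changed sign in some settings and passed in none of these: thinned, PSMB1 to 0.014, PSMB6 to 0.0043 and PSMD14 to 0.043; with library totals alone, PSMD2 to 0.026, PSMD4 to 0.0095, PSMD12 to 0.020 and PSMD14 to 0.0073; PSMC2 to -0.013 with no filter and PSMD2 to 0.0031 with the stricter filter. Leaving out 1 library at a time, PSMC2 ran from -0.020 to 0.036, PSMD2 from -0.042 to 0.029, PSMD4 from -0.072 to 0.024 and PSMD12 from -0.061 to 0.013. The causes were not tested.

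Same-numbered replicates gave no sign of pairing. Their deviations from the group means correlated at -0.0286 for sgRNA1 and 0.0416 for sgRNA2 over 8946 genes. With 2 libraries per group this cannot show that the libraries were unpaired. With the replicate block, 17 members were lower and 3 higher, PSMC1 being added (-0.35, adjusted p = 0.0426). PSMC1 also passed with no filter, with no guide term and without KO sgRNA2 replicate 2 or control sgRNA2 replicate 1 (adjusted p = 0.0102 to 0.0462). The calls of PSMA3, PSMB10, PSMC4, PSMC6, PSMD5, PSME2 and PSME3 were lost on thinning, which was 1 random draw. The thinned changes were smaller for PSMC6, PSMD5, PSME2 and PSME3 and larger for PSMA3, PSMB10 and PSMC4. PSMD5 also missed the threshold without either of 2 single libraries. Whether depth alone limits these calls was not tested.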
